A study of Mus musculus with 8 samples.

Results

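The wild-type mouse brain was described here at 7850 pairs of cleavage and polyadenylation sites, each pair being a proximal and a distal site in the 3′-most exon of 1 gene. Members were the pairs in which both sites together averaged 20 or more reads over the 3 wild-type libraries, which kept 7850 of the 7951 pairs listed. The question was how reads divide between the 2 sites of a gene in normal tissue, how closely animals agree on it, and how it goes with the distance between the sites and with the level of the gene. The measure used throughout is the distal share, the reads at the distal site as a percentage of the reads at both sites, and 50% means equal use of both.

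Most mammalian genes can end their messenger RNA at more than 1 place. The cleavage and polyadenylation complex, with its subunits CPSF, CSTF and CFIm, reads signals around each candidate site, cuts the nascent transcript and adds the poly(A) tail. When both sites lie in the last exon the coding sequence stays the same and only the 3′ untranslated region changes in length, and with it the binding sites for microRNAs and RNA-binding proteins. Brain is known as a tissue in which many genes use distal sites and carry long 3′ untranslated regions.

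The series profiled polyadenylated 3′ ends in total brain of 8 mice at postnatal day 50, of which 3 were wild type and 5 carried the Cstf2D50A mutation. Only the 3 wild-type animals enter the results below, and no genotype was compared. The animals came from a colony crossed for some generations into C57BL/6NCrl and then bred within itself, and wild-type mice were littermates of mutants. They received no treatment, and the libraries are called wild type 1, 2 and 3 here. Libraries were made with the QuantSeq 3′ REV kit, which primes at the poly(A) tail and gives 1 read per captured transcript end, so counts do not grow with transcript length.

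The pairs held 9616953 reads in wild type 1, 17530761 in wild type 2 and 11858975 in wild type 3, and the members took at least 99.98% of them in each. Marker genes were those of brain. Summed over the markers that the table lists, neurons (5 of 5 genes, Slc17a7, Snap25, Syt1, Gad1 and Rbfox3) stood at 3538, 6964 and 6372 CPM (reads per 1000000 reads of the table) in wild type 1, 2 and 3. Oligodendrocyte markers (4 of 5) stood between 3124 and 3784 CPM, astrocyte markers (3 of 5) between 3664 and 3749, microglial markers (3 of 4) between 219 and 259 and cerebellar markers (3 of 5) between 1202 and 1405. Flt1, the 1 endothelial marker of 3 in the table, read 18.4, 45.7 and 90.6 CPM. Of 3 genes that brain should lack, Acta1 was in the table, at 22.4 to 33.7 CPM. No listed marker was at 0. In bulk tissue, fewer cells of a type and less RNA per cell cannot be told apart.

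Pairs close to the read minimum were sparse. The member with the fewest reads was 1700013F07Rik, with 25, 26 and 9 reads in the 3 libraries and 40% of them at the distal site. The first pair left out was Zfp712, with 22, 16 and 21 reads and 33.9% at the distal site. Every member had at least 15 reads at each of its sites over the 3 libraries together, so the table holds no gene with a single end. How the pairs were picked from all ends of a gene was not given in the sources used here, and reads at other ends do not enter the share.

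Both sites were used to a like extent over all genes, but single genes mostly leaned strongly one way. The median distal share over the 7850 pairs was 51.8%, 50.9% and 53.6% in wild type 1, 2 and 3 (mean 52.1 ± 1.40%, SD, n = 3). The middle of the distribution was thin: 1126 pairs (14.3%) had a mean share between 40% and 60%, while 1424 (18.1%) lay under 10% and 1494 (19.0%) over 90%. The lower and upper quartiles of the share were 17.7% and 84.7%. At the far ends, 243 pairs had less than 1% of their reads at the distal site and 267 had more than 99%. The histogram of shares has the same 2 peaks in each library.

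**Figure D1:**
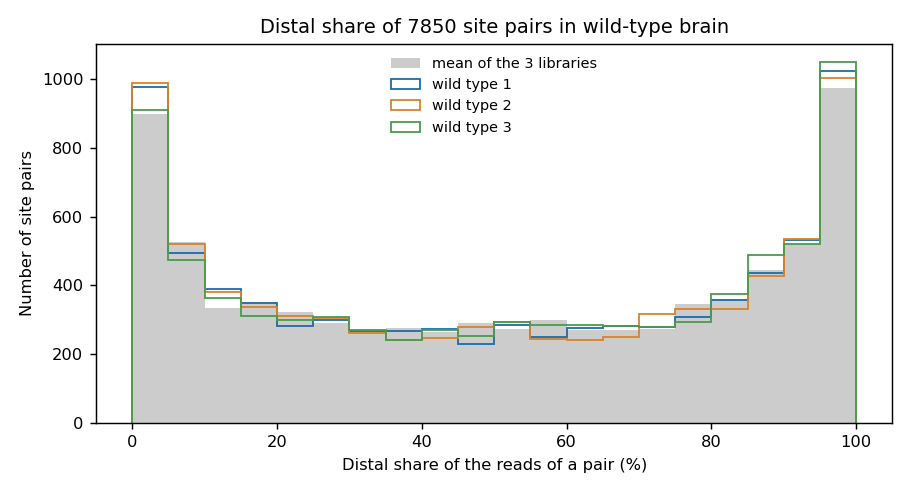
Number of site pairs (y axis) by distal share of their reads in percent (x axis, steps of 5 points) for the 7850 members; grey bars show the mean of the 3 libraries and outlines show each wild-type library. The bars peak at both ends, with 1424 pairs under 10% and 1494 over 90%, and the 3 outlines follow one another.

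In edgeR's quasi-likelihood test of distal against proximal reads with the library as a block, 3334 pairs (42.5%) had more distal reads and 3100 (39.5%) had more proximal reads at an adjusted p under 0.05, together 82% of the pairs tested. The median share was 88.3% among pairs called distal, 11.7% among pairs called proximal and 49.8% among the 1416 that were not called. The pairs not called also had fewer reads, with a median of 137 per library against 579 and 516. Without any test, 3600 pairs (45.9%) lay above 50% in all 3 libraries, 3345 (42.6%) lay below it in all 3, and 905 (11.5%) had libraries on both sides. The surplus of distal over proximal calls was small and depended on scaling: with a separate TMM factor for each site column, which moves the log2 ratios by a median of -0.15, calls were 3205 distal and 3227 proximal.

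Set on a log2 scale, distal over proximal reads had a median over pairs of 0.10, 0.05 and 0.20 in the 3 libraries (mean 0.12 ± 0.0789, SD, n = 3). All 3 were above 0, and the exact two-sided sign-flip test gave p = 0.25, the smallest value that 3 libraries allow. Counting reads and not genes, distal sites held 53.9%, 55.5% and 57.4% of all reads. A single gene weighed on that figure, since Frrs1l took 6.26%, 5.21% and 4.54% of all reads, nearly all at its distal site. Without it, distal sites held 50.8%, 53.1% and 55.4%. The p-values here rest on 3 animals, each sampled once. Those of edgeR also draw on spread shared across all pairs in the fit, and not only on that of the single pair.

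The 10 genes with the most reads spanned the whole range of shares. Frrs1l, which encodes a protein of AMPA receptor complexes, had 245, 316 and 607 reads at its proximal site against 601518, 912904 and 538258 at the distal site 1767 bases further on. Its share was therefore 99.96%, 99.97% and 99.89% (positions 56970045 and 56968278 on mm9; the table gives no chromosome). Slc17a7, the vesicular glutamate transporter of excitatory neurons, stood at 99.7%, 99.8% and 99.7%. Chchd2, a mitochondrial intermembrane protein, had 99.2%, 99.1% and 99.1% of its reads at a site 34 bases downstream of the other, and Mt2, a metallothionein, 98.2%, 98.2% and 98.4% at one 29 bases downstream.

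Other abundant genes divided their reads. Actb, cytoplasmic actin, had a distal share of 85.6%, 84.2% and 86.3%, and Nrgn, the postsynaptic calmodulin-binding neurogranin, 75.4%, 72.5% and 73.4%. Rtn1, a reticulon of the endoplasmic reticulum, lay on the proximal side at 42.4%, 36.6% and 41.2% (log2 ratio -0.58, SE 0.117, edgeR adjusted p = 0.0033; 0.0562 without wild type 2). In each of these genes the 3 libraries lay on the same side of 50%. At the other end were Ndrg2, a gene of astrocytes, with a mean share of 0.0770 ± 0.00705%, and the proton pump subunit Atp6v0e2 with 0.511 ± 0.0210% (SD, n = 3).

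Related genes could end quite differently. Calm2, a calmodulin gene, had 99.5%, 99.4% and 99.6% at a site only 45 bases downstream. Calm3, which encodes the same protein, was near balance, with 46.4%, 56.1% and 57.4%, so its libraries lay on both sides of 50%, and edgeR did not call it (log2 ratio 0.19, SE 0.165, adjusted p = 0.310). The log2 ratio of Calm2 was 7.66 (SE 0.228, edgeR adjusted p = 9.30e-07). Alpha-tubulins differed in the same way, with mean shares of 99.6 ± 0.107% for Tuba1a and 45.2 ± 1.82% for Tuba4a (SD, n = 3). How reads of close paralogs were assigned was not given in the sources used here.

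The most one-sided pairs with 100 or more reads belonged to abundant housekeeping, glial and neuronal genes. Toward the distal site these were Tuba1b, Atp6v1f, Sparcl1, Camk2b and Rnf187, with fitted log2 ratios between 10.94 and 12.46. Camk2b, the beta subunit of CaM kinase II, had 9, 31 and 17 proximal reads against 18381, 60550 and 38090 distal reads. Toward the proximal site they were Apod, Rps9, Mdh2, Hspa8 and Apoe, with log2 ratios between -12.02 and -10.84. Rps9, a protein of the small ribosomal subunit, had 50032, 52699 and 31131 proximal reads against 17, 11 and 6 distal reads. Apod, a lipocalin, had 0, 12 and 5 distal reads beside 21992, 32183 and 15455 proximal ones. Apart from Apod in wild type 1, each of these pairs had reads at its minor site in every library. Every member had at least 15 reads at each site over the 3 libraries together, so reads at the minor site follow from the listing. Ratios of this size can therefore occur only in pairs with many reads, and neither is read as a trait of these genes.

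Genes with many reads could also lie near 50%. By closeness to 50% among pairs with 500 or more reads and an SD under 5 points, the nearest were Ctnnd2, Pcbp2, Hsf2, 1700021F05Rik, Myl12b, Arhgap5, Arih2 and Camsap2. Myl12b, a regulatory light chain of myosin, had 50.4%, 50.0% and 48.6%, and Camsap2, which binds microtubule minus ends, had 51.9%, 51.3% and 49.0%. Arhgap5, a GTPase-activating protein with sites 819 bases apart, had 50.7%, 52.4% and 48.7%. The limit on the SD fixes how near to each other the libraries of these genes lie, and single libraries lay on both sides of 50%, as in Ctnnd2 with 52.7%, 45.3% and 51.8%. The sites lay 28 to 81 bases apart in 5 of these 8 genes and 271 to 1087 bases apart in the other 3.

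The 3 animals agreed closely on most pairs. Across the 7850 pairs, the shares of wild type 1 and 2 had a Pearson r of 0.981, those of 1 and 3 of 0.957, and those of 2 and 3 of 0.955; these r values run over genes, which are not independent replicates. The SD of the share over the 3 libraries had a median of 2.83 points (quartiles 1.02 and 6.20). It exceeded 10 points in 964 pairs (12.3%) and 20 points in 118. Read counting contributes to this spread, and the measured SD was a median of 1.59 times the SD that binomial sampling of the same reads gives. It was above the counting SD in 73.4% of pairs and not in the others. An SD of 3 values falls below the SD it estimates more often than above it. The counting SD is thus not the median that counting alone would give. Among pairs with a share of 25% to 75%, the median SD was 8.91 points in the quartile of pairs with the lowest levels. The median counting SD there was 6.28. In the quartile with the highest levels the 2 values were 3.65 and 1.04 points.

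Wild type 3 stood apart from the other libraries more often than either of them. It lay farthest from the mean of the others in 3733 of 7850 pairs (47.6%), in 652 of the 964 pairs with an SD over 10 points, and in 93 of the 118 with an SD over 20 points. Its share was the highest of the 3 in 45.6% of pairs and the lowest in 32.5%, while wild type 1 and 2 were lowest in 33.5% and 33.97%. Of the pairs in which it lay farthest, it was toward the distal site in 2249 and toward the proximal site in 1484. Its median deviation from the mean of the others was largest at sites 35 to 55 and 56 to 100 bases apart, at 1.28 and 1.84 points. At all other distances it was 0.0879 to 0.460 points. The median SD without wild type 3 was 1.58 points, against 2.28 without wild type 1. Wild type 3 had the highest level of Flt1 and lay between the other libraries in total reads and in the summed neuronal and oligodendrocyte markers. It was highest in summed astrocyte markers, with 3749 CPM against 3722 and 3664 in wild type 1 and 2. It was lowest in summed microglial markers (219 against 259 and 247) and cerebellar markers (1202 against 1405 and 1227). Single markers did not all follow their sums. Aldoc was lowest in wild type 3 (2963, 2864 and 2311 CPM in the 3 libraries) and Slc1a2 highest (418, 568 and 1223). Syt1 and Snap25 were highest there, and Slc17a7 lay between the other libraries. Cx3cr1 and Zic1 were lowest, while Csf1r, P2ry12, Cbln1 and Cbln3 lay between. The part of these differences in its shares was not tested.

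**Figure D2:**
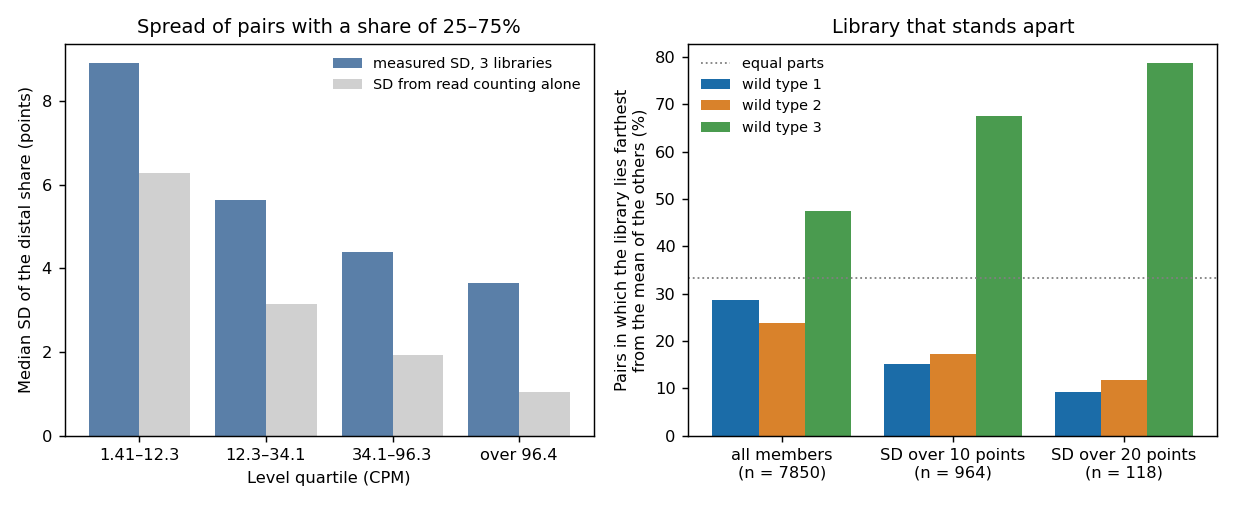
Left, median SD of the distal share in points between the 3 libraries (blue) beside the SD from read counting alone (grey), for pairs with a share of 25% to 75% by quartile of level in CPM. Right, percentage of pairs in which each library lies farthest from the mean of the others, for all 7850 members and for the 964 and 118 with an SD over 10 and 20 points; wild type 3 takes 47.6%, 67.6% and 78.8%, and the dotted line marks equal parts.

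The pairs with the largest spread at 200 or more reads were all of this kind. Srsf1, a splicing regulator, had a share of 85.1% and 78.0% in wild type 1 and 2 but 40.3% in wild type 3, from 2443 reads there. Zhx1, a transcriptional repressor, read 75.4%, 72.3% and 32.8%, and the neuronal calcium sensor Ncs1 read 63.4%, 56.02% and 22.3%. Wild type 3 lay on the distal side instead at Zbtb7a, a transcription factor, with 28.9%, 37.3% and 69.0%, and at Rgs20, a regulator of G protein signalling, with 58.3%, 42.9% and 85.9%. Sap18, Cdk17 and Fam126b completed the 8 widest. Of these, edgeR called only Fam126b (log2 ratio 1.48, SE 0.551, adjusted p = 0.0434), and not without wild type 1 or 2 (adjusted p = 0.166 and 0.180). Without wild type 3, edgeR called Srsf1, Zhx1, Zbtb7a, Sap18, Cdk17 and Ncs1 as well, with adjusted p-values from 2.88e-12 to 0.0054. In all 12 pairs with 200 or more reads and an SD over 20 points, wild type 3 was the library farthest from the others, upward in 6 and downward in 6. Without it, the log2 ratio of Ncs1 changed from -0.20 to 0.56.

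Sites of a pair lay a median of 629.5 bases apart (quartiles 139 and 1803.5), from 25 bases to 1118920. The median share differed between distance classes, and the pairs over 2000 bases apart had the lowest of 4 broad classes. It was 53.4% in the 1676 pairs up to 100 bases apart (52.0%, 51.5% and 56.8% in wild type 1, 2 and 3). The 1871 pairs above 100 and up to 500 bases apart stood at 56.4%. The 2546 pairs above 500 and up to 2000 bases apart stood at 53.7%. Within the closest class, the 482 pairs 25 to 28 bases apart had a median of 44.7% and the 312 pairs 29 to 34 bases apart 55.1%. In the 1757 pairs over 2000 bases apart the median was 44.6% (43.9%, 43.9% and 46.6% in wild type 1, 2 and 3). The distant pairs differed from all others by -10.2, -8.86 and -9.59 points in the 3 libraries, a difference of the same sign in each, for which 3 libraries allow no exact sign-flip p under 0.25.

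Calls followed the same pattern. Over 2000 bases, 634 pairs (36.1%) were called distal and 765 (43.5%) proximal by edgeR. From above 500 to 2000 bases, 1114 (43.8%) were called distal and 937 (36.8%) proximal. Of all members, 42.5% were called distal and 39.5% proximal. The class up to 100 bases (44.5% and 40.5%) and the one ending at 500 bases (44.9% and 38.5%) lay near that. As a description across all pairs, Spearman's correlation between share and distance was -0.0411, and it was -0.116, -0.108 and -0.109 in wild type 1, 2 and 3 among pairs over 2000 bases apart. Up to 2000 bases it was 0.0209, 0.0233 and 0.0125. Distant pairs also had lower levels (median 26.4 CPM against 34.7 in the class before it), and the difference held within level. Among the pairs with the highest levels, the median share was 72.8% above 500 and up to 2000 bases and 43.9% over 2000 bases. Closer pairs of these levels stood at 55.2% up to 100 bases and 64.4% above 100 and up to 500 bases. Among the pairs with the lowest levels, the 2 most distant classes stood at 48.6% and 45.7%. Over all distances, Spearman's correlation of share and distance was -0.00912 in the highest quartile of level and -0.0707 in the lowest.

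**Figure D3:**
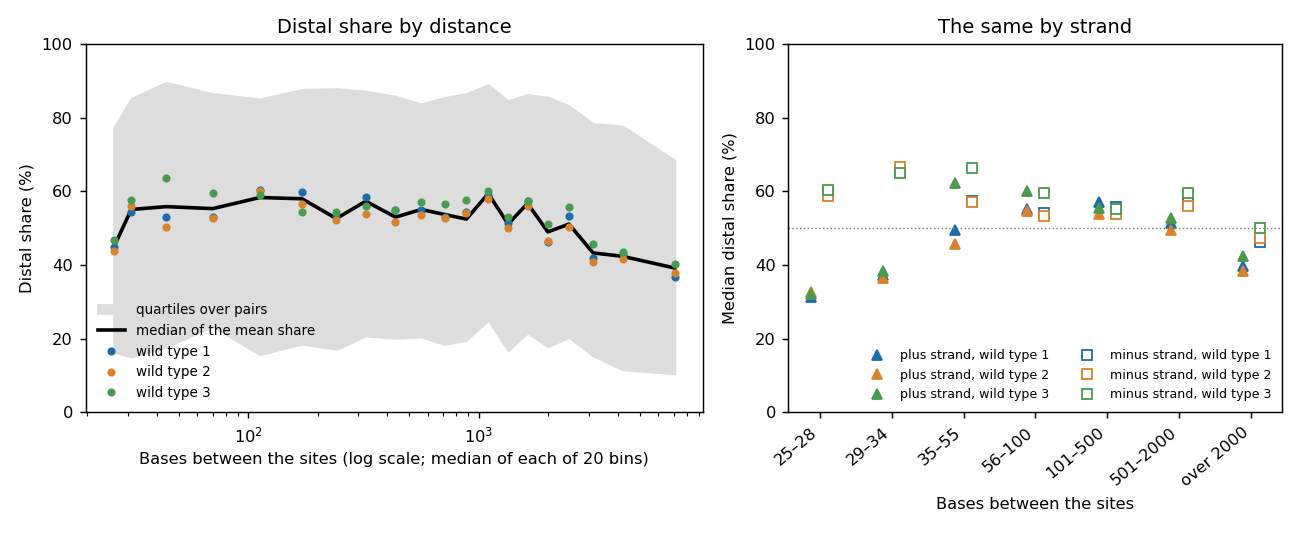
Left, distal share in percent (y axis) by bases between the sites (x axis, log scale, 20 bins of pairs): black line, median of the mean share; points, medians of each library; grey band, quartiles over pairs. Right, median distal share by distance class for genes on the plus strand (filled triangles) and minus strand (open squares) in each library; the strands lie farthest apart at 25 to 34 bases, and over 2000 bases they stand at 40.6% and 47.0%.

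Pairs under 35 bases apart showed a feature tied to the direction of the coordinates. At 25 to 28 bases, the median distal share was 31.6% in 223 genes on the plus strand and 60.5% in 259 genes on the minus strand, and at 29 to 34 bases it was 36.7% and 63.9%. Put by position, the site with the lower coordinate held a median of 64.8% and 63.3% of the reads in these classes, whichever strand the gene was on. The strand was read from the order of the sites. At 35 to 55 bases the plus and minus strands stood at 52.6% and 58.6%. There the 3 libraries stood at 49.4%, 45.8% and 62.3% on the plus strand and 57.4%, 57.0% and 66.3% on the minus strand. The plus strand was the higher one at 56 to 100 bases, with 57.4% against 56.4%. Above 100 and up to 500 bases the medians of the mean share were 57.9% on the plus and 54.1% on the minus strand. Within single libraries the strands lay closer there. The plus strand stood at 57.0%, 53.87% and 55.6% and the minus strand at 55.8%, 53.86% and 55.2%. Above 500 bases the minus strand was again higher, by less than under 35 bases. There the plus and minus strands stood at 50.6% and 56.8% up to 2000 bases, and at 40.6% and 47.0% over 2000 bases. The cause of these differences was not tested, and how the authors joined or split neighbouring ends was not given in the sources used here. Pairs from 35 bases upward had a median share of 50.2% on the plus strand and 53.8% on the minus strand.

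In each distance class the most abundant genes called distal and called proximal were picked separately, so both patterns are present by choice. Up to 100 bases, Dbi, the acyl-CoA-binding protein, had 95.9%, 96.1% and 96.2% at the distal site, while Fth1, the ferritin heavy chain, had 0.304%, 0.368% and 0.439%. Above 100 and up to 500 bases, Gpm6a, a neuronal membrane glycoprotein, stood at 83.6%, 81.5% and 80.1% and the superoxide dismutase gene Sod1 at 0.0795%, 0.143% and 0.195%. Up to 2000 bases, Gabarapl1, an autophagy protein, was 99.9% distal in each library, and Stmn1, which destabilises microtubules, stood at 0.183%, 0.209% and 0.174%. Each of these genes lay on the same side of 50% in all 3 libraries. So did 3330 of the 3334 pairs called distal and 3097 of the 3100 called proximal.

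Among genes with long stretches between the sites, the far site could be the major one. Map2, the dendritic microtubule-associated protein, had 18, 37 and 30 proximal reads against 21219, 38824 and 28762 reads at a site 2626 bases downstream. Slc1a2, the main astrocytic glutamate transporter, had 96.0%, 96.8% and 98.9% at a site 9037 bases downstream, and Kcnma1, the BK potassium channel, 98.9%, 98.2% and 99.4% at one 7441 bases downstream. In others the far site was rarely used. Gabbr1, a GABA-B receptor subunit, had 1.68%, 1.66% and 1.93% at 8392 bases, Rps12 0.368%, 0.422% and 0.416% at 5008 bases, and Hnrnpu, a nuclear RNA-binding protein, 0.841%, 0.986% and 0.919% at 12569 bases. Qdpr, an enzyme of tetrahydrobiopterin recycling, had 1.07%, 1.69% and 2.04% at 8538 bases. The libraries of each of these genes lay on the same side of 50%.

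The pairs farthest apart span more than a 3′ untranslated region usually does. By the positions in the table, the sites lay 1118920 bases apart at Rnaset2b, 124672 at Atxn7l1 and 87149 at Kcna1, and 90 pairs exceeded 10000 bases. Kcna1, a Shaker potassium channel, had 12.8%, 14.3% and 13.8% of its reads at the far position (126499340, against 126586489 for the proximal site on mm9). Rnaset2b had 42.0%, 45.3% and 41.1%, and edgeR did not call it (log2 ratio -0.42, SE 0.205, adjusted p = 0.0985). Whether the far position at such genes belongs to the same transcript was not tested. Without a genome of that build here, the sequence at the sites was not examined.

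The median share and the percentage of one-sided pairs were both higher in the upper quartiles of level. By quartile of level, from low to high, the median share was 49.1%, 51.1%, 52.9% and 60.6%. The percentage of pairs with a share under 10% or over 90% went from 9.88% through 31.9% and 46.6% to 60.3%. In the highest quartile, 998 pairs (50.8%) were called distal and 846 (43.1%) proximal, against 42.5% and 39.5% of all members. In the lowest, 599 (30.5%) and 604 (30.8%) were called, and the fewer reads there also limit what edgeR can call. Across pairs, Spearman's correlation between share and level was 0.0489 (0.0344, 0.0432 and 0.0648 in the 3 libraries). Every pair had at least 15 reads at each site over the 3 libraries, and pairs of the lowest quartile had a median of 76.7 reads a library. Shares near 0% or 100% could therefore not occur in pairs with few reads, and the higher percentage of one-sided pairs at high level is not read as a result.

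Gene groups differed in their use of the 2 sites, and the clearest were genes of the ribosome and of mitochondrial respiration. Of 44 cytosolic ribosomal protein genes, 35 were called proximal and 8 distal, with a median share of 1.30% (1.07%, 1.27% and 1.43% in the 3 libraries) against 51.9% for all members. Called proximal were 79.5% of them and called distal 18.2%, against 39.5% and 42.5% of all members. Rps25 had 0.1103%, 0.108% and 0.137% at its distal site, Rpl13a had 1.13%, 1.04% and 1.53%, and Rpl37a 1.04%, 1.01% and 1.34%. Most of the ribosomal genes called distal had close sites. Among the 34 genes with sites over 100 bases apart, 32 were called proximal and 2 distal, with a median of 0.822%.

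The ribosomal genes outside this pattern were looked up after their values were seen. Rps6, with sites 326 bases apart, had a share of 88.7%, 91.7% and 80.2%, and Rpl28, with sites 5517 bases apart, had 89.1%, 60.6% and 84.5%. Both had few reads for genes of this kind, with means of 33.2 and 49.3 CPM. Rpl32, Rps26, Rpsa, Rpl39, Rpl35a and Rps27l were distal at sites 27 to 45 bases apart. Ribosomal protein genes have many processed copies in the genome, and how reads from such copies were treated was not given in the sources used here.

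Subunits of oxidative phosphorylation, the respiratory complexes and ATP synthase of mitochondria, had a median share of 11.2%, with 31 of 48 called proximal and 14 distal. These calls were 64.6% and 29.2% of the list, against 39.5% and 42.5% of all members. Atp5l, a subunit of ATP synthase, had 0.0510%, 0.175% and 0.122% at its distal position, and Ndufb9, of complex I, had 0.173%, 0.248% and 0.231%. Cox6c, of cytochrome oxidase, was 99.9% distal in each library at a site 30 bases away. Here too the distal calls sat mostly at close sites: with sites over 100 bases apart, 18 of 22 were called proximal and 2 distal, with a median of 1.38%. Up to 100 bases apart, 13 were called proximal and 12 distal.

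The list of 52 ubiquitin and proteasome genes had a median of 25.1%, with 31 called proximal and 18 distal, but not all genes of ubiquitin transfer were like it. The 28 members with symbols that start with Ube, ubiquitin-conjugating enzymes and ligases among them, had a median of 64.0%, with 16 called distal and 9 proximal, a grouping made after the values were known. Psmb4, a subunit of the proteasome core, had 0.0125%, 0.0915% and 0.156%, the polyubiquitin gene Ubb 0.347%, 0.316% and 0.292% and the neuronal deubiquitinase Uchl1 0.148%, 0.148% and 0.289%. Ube2d3, a ubiquitin-conjugating enzyme, read 20.1%, 20.04% and 37.1%, with wild type 3 apart. Chromatin modifiers were divided, with 19 of 43 called proximal, 18 distal and a median of 41.4%. Their 44.2% proximal and 41.9% distal lay near the 39.5% and 42.5% of all members. Chd4, a remodelling ATPase, had a mean share of 2.36 ± 1.18% and the histone deacetylase Hdac11 99.8 ± 0.0781% (SD, n = 3).

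Genes of the synapse had median shares on the distal side. The presynaptic list, of vesicle and release proteins, had the highest median of the lists with over 10 members, at 87.8% (88.6%, 88.6% and 86.3% in the 3 libraries), with 32 of 50 called distal and 16 proximal. That is 64.0% distal and 32.0% proximal, against 42.5% and 39.5% of all members. Vamp2, the vesicle SNARE, had a mean of 99.9 ± 0.0454% and beta-synuclein, Sncb, 98.97 ± 0.224% (SD, n = 3). Dnajc5, a vesicle chaperone, read 89.5%, 85.4% and 86.0%. Exceptions were Rab3a, a vesicle GTPase, with 22.3%, 22.3% and 21.5% at sites 26 bases apart, and the adhesion protein Nrxn2, with 1.502%, 0.666% and 0.404%.

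Of 37 genes of the glutamatergic postsynapse, 20 were called distal and 12 proximal, with a median of 73.2%. That is 54.1% distal and 32.4% proximal, against 42.5% and 39.5% of all members. Camk2a, the alpha subunit of CaM kinase II, had 86.6%, 83.3% and 81.5%, and the scaffold Dlg3 had 94.7%, 94.3% and 96.5%. Its relative Dlg4, which encodes PSD-95, was at the opposite end, with 0.0605%, 0.0766% and 0.197%. The AMPA receptor subunit Gria1 was proximal as well, at 15.5%, 18.2% and 18.3%. GABAergic synapse genes had a median of 69.6%, with 17 of 27 called distal and 8 proximal (63.0% and 29.6%). Slc32a1, the vesicular GABA transporter, had 98.9%, 99.1% and 99.3%, and the neuropeptide gene Cck had 0.365%, 0.446% and 0.450%.

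Voltage-gated ion channels (24 of 40 distal, 11 proximal, median 75.4%) and genes of the cytoskeleton and transport (25 of 40 distal, 13 proximal, median 76.3%) were placed likewise. Scn2b, a sodium channel beta subunit, had 98.4%, 97.4% and 97.9%, and Kcnj4, an inward rectifier, was balanced at 51.9%, 46.0% and 47.7%. Axon guidance genes (21 of 44 distal, 15 proximal) and genes of neurotrophin, MAPK and mTOR signalling (23 of 45 distal, 13 proximal) had medians of 60.7% and 60.8%. Called distal were 47.7% of the axon guidance genes and 51.1% of the signalling genes, and called proximal 34.1% and 28.9%, against 42.5% and 39.5% of all members, so the axon guidance genes lay near the background. Among the latter, Pik3r1, a PI3-kinase regulatory subunit, stood at 99.4 ± 0.0865% and the kinase Akt2 at 3.88 ± 0.0901% (SD, n = 3). Immediate early genes had a median of 64.6%, with 7 of 13 distal and 5 proximal, and their median over pairs more than 100 bases apart was 28.5% in 9 genes. Heat shock genes and chaperones were evenly split, with 12 distal and 12 proximal of 31.

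**Figure D4:**
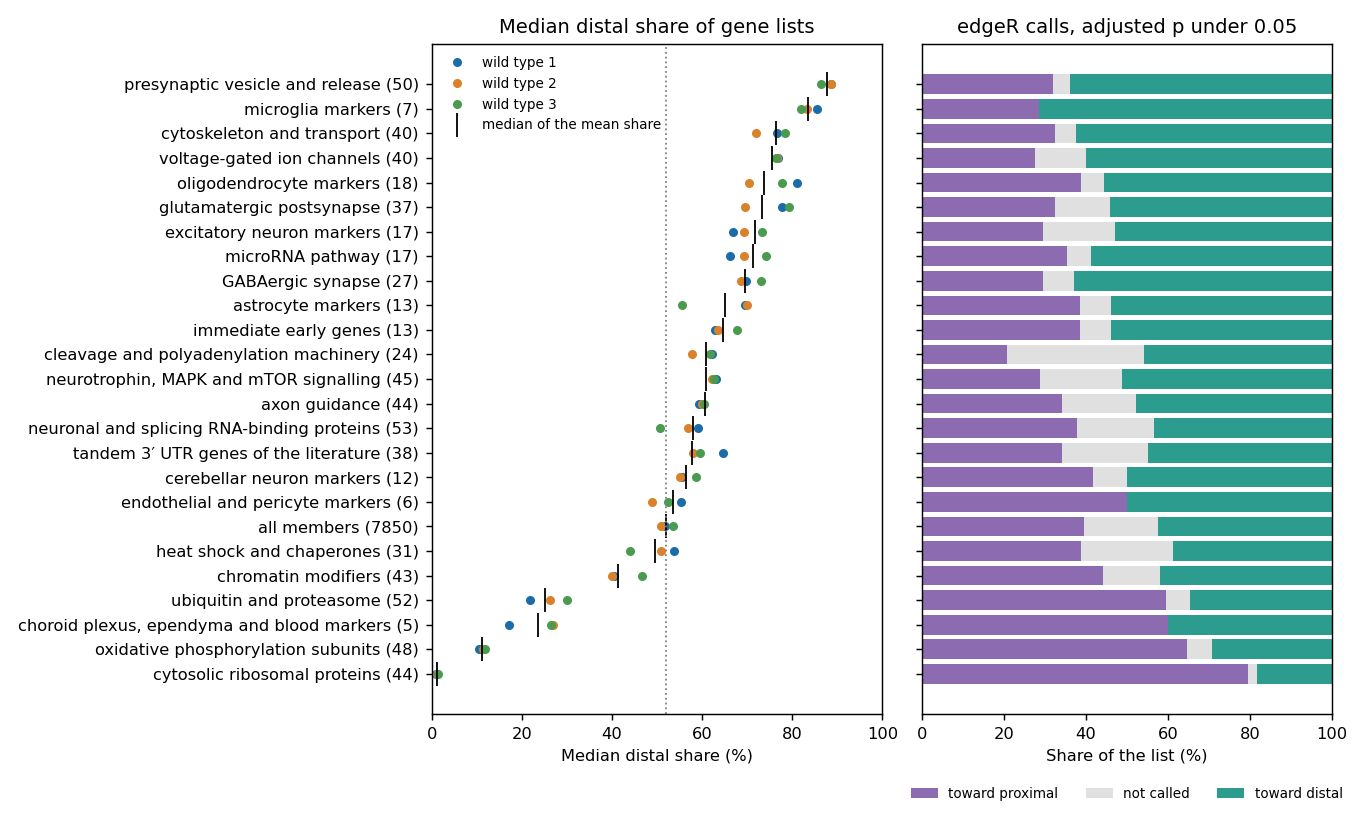
Left, median distal share in percent of each gene list with 5 or more members (number in brackets) in each library (points) and of the mean share (bar); the dotted line marks all members at 51.9%. Right, percentage of each list called proximal, not called or called distal by edgeR; ribosomal proteins lie lowest at 1.30% and the presynaptic list highest at 87.8%.

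These groups are set beside all members as counts and medians only, and no test compared them with other genes. The median of each list named above lay on the same side of 51.9% whichever library was left out, and with a TMM factor per site column each kept its larger side of calls, with heat shock genes and chaperones at 11 distal and 12 proximal. Levels differ between the groups too: the ribosomal genes include some of the most abundant pairs, and one-sided shares are more frequent among those. The median level was 251 CPM in the presynaptic list, 107 in the GABAergic, 64.2 in the glutamatergic and 410 in the cytoskeleton list. It was 34.5 in the ion channels and 34.1 over all members. In the highest quartile of level, the median share was 60.6% and 50.8% of pairs were called distal. The part of level in the shares of these lists was not tested.

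Genes known from earlier work for tandem 3′ untranslated regions lay close to all members in their calls, and the plot of single genes shows their shares. Of 38 such members, 17 were called distal, 13 proximal and 8 neither, with a median of 57.9%. That is 44.7% distal and 34.2% proximal, against 42.5% and 39.5% of all members. Elavl1, which encodes the RNA-binding protein HuR, was distal with 81.5%, 81.6% and 75.7%. The GTPases Rac1 and Cdc42 had means of 91.1 ± 1.52% and 96.4 ± 1.15% (SD, n = 3). Proximal ones included Ntrk2, the BDNF receptor, with 21.6%, 16.9% and 21.3%, Dicer1 with 23.9%, 27.3% and 31.1%, and Ccnd2, cyclin D2, with 22.0%, 18.9% and 27.8%.

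Some of these genes were less settled. Bdnf, the neurotrophin, read 65.9%, 73.7% and 34.7% from only 38 to 49 reads a library, and edgeR did not call it (log2 ratio 0.46, SE 0.528, adjusted p = 0.445; 0.0130 without wild type 3). Its listed sites lie 170 bases apart, so they are not its well-known short and long ends. Ccnd1, cyclin D1, read 19.2%, 25.8% and 53.0%, and Fmr1, the gene of fragile X syndrome, 19.8%, 23.9% and 48.7%, with wild type 3 apart in both; edgeR called both proximal, but not without wild type 1 or 2 (adjusted p from 0.152 to 0.206). Snap25, a synaptic SNARE, had 87.9%, 87.1% and 73.6%. Mapt, which encodes tau, stood at 1.17%, 1.32% and 1.38%, but for sites only 31 bases apart.

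**Figure D5:**
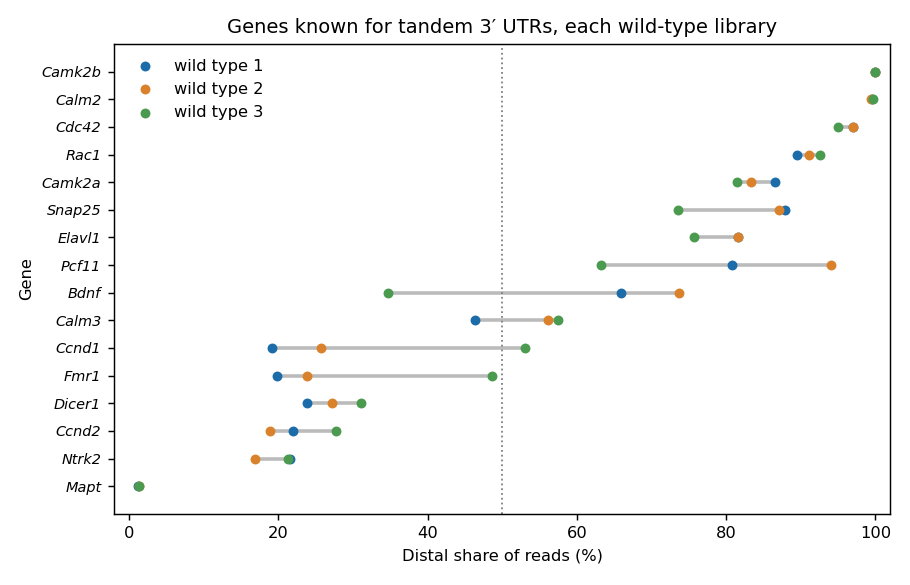
Distal share of reads in percent (x axis) of 16 of the 38 genes known for tandem 3′ untranslated regions, those described in the text (y axis, ordered by mean share), with 1 point for each wild-type library and a grey line from the lowest to the highest. Shares run from 1.29% at Mapt to 99.95% at Camk2b, and the widest lines belong to Bdnf, Ccnd1, Pcf11 and Fmr1.

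The genes that make and read 3′ ends used both kinds of site, as all members did. Of 24 members of the cleavage and polyadenylation machinery, 11 were called distal, 5 proximal and 8 neither, with a median of 60.9%. That is 45.8% distal and 20.8% proximal, against 42.5% and 39.5% of all members. Cstf2, the CSTF subunit that binds downstream of the cut, had 97.1%, 97.9% and 97.5%, and Fip1l1, a CPSF subunit, 96.8%, 96.2% and 95.9%. Pcf11, a termination factor, read 80.8%, 94.0% and 63.2% (edgeR adjusted p = 0.0163, and 0.0550 without wild type 1), and Cpsf2 68.7%, 63.8% and 48.5%, which edgeR did not call unless wild type 3 was left out (adjusted p = 0.0705, and 2.6e-05 without it). Rtf1 and Cdc73, of the PAF complex, were proximal with means of 15.7 ± 1.23% and 16.7 ± 2.49% (SD, n = 3). RNA-binding proteins of neurons and of splicing were close to all members, with 23 of 53 distal, 20 proximal and a median of 58.0%; with TMM factors the calls were 20 and 21. Celf2, a splicing regulator, had 8.16%, 8.27% and 11.1%. In the microRNA pathway 10 of 17 were called distal and 6 proximal (58.8% and 35.3%), with Ddx6 at 99.3 ± 0.220% and Drosha at 8.82 ± 0.145% (SD, n = 3). With 24 and 17 genes, nothing is read from how the machinery and microRNA lists differ from all members.

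Markers of the brain's cell types included distal and proximal genes, as all members did. Oligodendrocyte markers had 10 of 18 called distal and 7 proximal, excitatory neuron markers 9 and 5 of 17, and astrocyte markers 7 and 5 of 13. Called distal were 55.6%, 52.9% and 53.8% of these lists against 42.5% of all members, and with 13 to 18 genes a list nothing is read from the difference. Mbp, myelin basic protein, had 99.8%, 99.7% and 99.7% at its distal site. Glul, glutamine synthetase of astrocytes, had 23.8%, 23.8% and 23.7% at sites 51 bases apart, and Aldoc, aldolase C, 0.709%, 0.795% and 0.992%. Among 7 microglial markers, the receptor Csf1r had 96.5%, 96.7% and 96.9%, and P2ry12 had 4.17%, 6.78% and 4.61% at sites 90 bases apart. The share of a marker gene is measured within its own reads and not against other genes.

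Ends in upstream exons took like parts of the reads in genes called distal and proximal, and a larger part in genes without a call, which also had fewer reads. For the 4000 members that the second deposited table also lists, the upstream site held a median of 3.92% of reads in genes called distal, 3.62% in genes called proximal and 10.03% in genes not called. Across these genes, Spearman's correlation between the upstream percentage and the distal share was 0.00123, as a description. The tables share reads, so these values are not independent of the counts used above. Genes called distal were longer, with a median RefSeq gene length of 32781 bases against 23186 for genes called proximal (7684 members with a length), and gene length also went with distance between the sites (Spearman's correlation 0.141). No cause was tested.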

How the data were processed

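Reads were counted per site by the authors, and the deposited values are raw counts per the file headers: whole numbers per site and library, used as deposited. Per the submitters' processing notes, FastQC 0.11.3, STAR 2.5 and HTSeq 0.6.0 were used with mouse build mm9, without the role of each. Site calling, removal of internal priming and strand use are not given in the sources used here. Some symbols are spreadsheet dates, kept as given, and 81 members carry the same counts as another pair and are uncertain. The 3 wild-type libraries were taken by their labelled genotype, and library numbers only name animals; 0 value columns were left unassigned.

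Members had a mean of 20 or more reads over both sites. The distal share was computed per library and averaged. Distal and proximal counts were tested with edgeR's quasi-likelihood test (glmQLFit, glmQLFTest), with the library as a block, both columns of a library scaled by their sum, and Benjamini-Hochberg adjustment over 7850 pairs at 0.05; SE is the log2 ratio over the square root of F. Log2 ratios outside the fit had 0.5 added to each count. Levels are CPM, reads of both sites per 1000000 reads in the table. Tested on simulated data over 7850 pairs, the fit recovered 52% of pairs changed 2-fold and 99% of those changed 4-fold, with 4.43% false among calls. The simulation changed 200 pairs, gave all others equal use of both sites and set the same dispersion for every pair. The measured pairs mostly lean to one side and differ in spread, so these figures are not error rates of the calls above. The versions were 4.3.3 for R, 1.42.0 for DESeq2, 4.0.16 for edgeR and 3.58.1 for limma.

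The members, 25 gene lists and tests were chosen with earlier results of these data known. Genes were named by rule: the 10 with most reads; the 5 with the largest log2 ratio in each direction (100 or more reads, 1 side of 50% in all libraries); the 8 nearest 50% (500 or more reads, SD under 5 points); the 8 with the largest SD (200 or more reads); the 8 farthest apart; the 5 most abundant per distance class and direction; and up to 6 of each list, with every tandem gene. Alternatives were other tools and scaling, other filters, leaving out each library, a pseudocount of 5 and, chosen after seeing the data, leaving out pairs under 35 bases apart. Some genes within the rule are not reported here.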

Additional observations from a re-analysis of the deposited data

How the results depend on the processing

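Between 2586 and 3447 pairs were called distal and between 2420 and 3332 proximal over 14 alternatives each, all within 1.5 times the values reported. DESeq2 called 3279 and 3064, and limma 3337 and 3122. Each library is its own block because both sites come from it; the fit with no replicate block called 3232 and 2980. The median SD was 2.22 points among pairs of 100 or more reads, and 1.58 to 2.47 with a library left out. An SD over fewer values has a lower median at the same spread. Those with a library left out are therefore not set against the SD over all libraries. In the class ending at 2000 bases the median share was 56.9% with 100 or more reads. In the class ending at 500 bases it was 55.1% to 55.8% with a library left out. The Spearman correlation of share and distance was -0.0655 without pairs 100 bases apart or less and -0.0642 without pairs under 35 bases apart, where the class up to 100 bases stood at 56.9%. Ncs1 had a log2 ratio from -0.72 to 0.56 with a library left out, the last without wild type 3. The cause of these changes was not tested beyond the change in the pairs or libraries used.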

Other observations

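Families of genes with a common start of the symbol, with 25 or more members each and no shared counts, covered gene groups not described above. Of 15 such families, mitochondrial ribosomal proteins of the large subunit (Mrpl) lay second lowest after Rpl, with a median distal share of 20.1% (17.9%, 18.7% and 20.6% in the 3 libraries) and 24 of 34 called proximal by edgeR. Translation initiation factors (Eif) had a median of 38.7%, with 17 of 36 proximal and 15 distal. The 210 zinc finger genes named Zfp had a median of 44.5% (44.4%, 46.5% and 44.4%), with 88 proximal, 67 distal and 55 not called. Over all members, 39.5% were called proximal and 42.5% distal.

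Ubiquitin ligases of the RING type (Rnf) and deubiquitinating enzymes (Usp) lay highest of these 15 families, on the other side of 50% from the median of the ubiquitin and proteasome list described above. The median was 76.9% for Rnf, with 27 of 49 distal and 15 proximal, and 74.5% for Usp, with 23 of 36 distal and 9 proximal. Ubiquitin-conjugating enzymes and ligases named Ube had 64.0%, with 16 of 28 distal and 9 proximal. Solute carriers (Slc) were near all members at 54.8%, with 56 of 132 distal and 46 proximal. These families were looked at after the values were known, and no test compared them.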
